A study of Mus musculus with 36 samples.

Results

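The genes described here encode splicing factors, the proteins that remove introns from pre-mRNA. They were taken as every protein-coding gene of the gene-level count table whose symbol starts with U2af, Sf3a, Sf3b, Snrp, Srsf or Hnrnp, which gave 55 of the 54347 genes: 3 U2af, 3 Sf3a, 6 Sf3b, 12 Snrp, 11 Srsf and 20 Hnrnp genes. The rule reads symbols and no measured value, but these families were picked with results of the same data known, so the counts of members below are descriptions. Another 5 genes with these prefixes are processed pseudogenes and were counted only.

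The study asked whether the ketone body β-hydroxybutyrate (bOHB) changes gene expression the way butyrate does. Butyrate is a short-chain fatty acid known as an inhibitor of histone deacetylases, and bOHB is butyrate with a hydroxyl group on the beta carbon. Primary cells of male C57Bl/6 mice were exposed for 6 h to 5 mM bOHB, given as the sodium salt of (R)-3-hydroxybutyric acid, to 5 mM butyrate or to PBS as control, giving 12 groups of 3 libraries. The adipocytes had been differentiated from the stromal vascular fraction of inguinal fat pooled from several mice, the macrophages from bone marrow in L929-conditioned medium and the myotubes from hindlimb myoblasts, whereas the hepatocytes came from collagenase-perfused livers of C57BL/6NHsd males. Adipocytes and macrophages were treated in the same kind of medium, myotubes and hepatocytes each in another, so the cell types differ in medium too.

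Splicing starts when the U1 snRNP pairs with the 5' splice site and the U2AF heterodimer binds the polypyrimidine tract and the AG of the 3' splice site. The U2 snRNP then settles on the branch point through its SF3a and SF3b subcomplexes, and the U1, U2, U4 and U5 snRNPs are built around a ring of Sm proteins encoded by Snrp genes. SR proteins (Srsf) mostly favour and hnRNP proteins (Hnrnp) often oppose the use of exons they bind, and many genes of both groups carry conserved exons whose inclusion sends the transcript to nonsense-mediated decay. Gene-level counts add up all transcripts of a gene, so they do not show such isoform changes.

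The 36 libraries held between 18366289 and 23221473 estimated reads on genes, with a median of 22177562. The labels number the replicates but do not say that they came from separate animals or cultures, so p-values measure the spread between these samples, which may be technical. Of the 55 genes, 54 passed the filter of more than 1 CPM (counts scaled to a common library size) in at least 6 libraries and were tested among 15340 genes. The exception was Srsf12, which exceeded 1 CPM in 3 libraries and reached at most 1.94 CPM on library totals, the scale of that filter. In every library the defining markers of the labelled cell type summed to at least 2568 CPM. Fibroblast markers, however, summed to 7848 to 9070 CPM in adipocyte controls. They summed to 2462 to 2642 CPM in macrophage controls and 1654 to 2031 CPM in myotube controls. In butyrate-treated macrophages they stood at 1698 to 2381 CPM. Butyrate lowered 4 of 5 adipocyte markers in adipocytes (summed to 8353 to 9051 CPM in controls and 6535 to 7881 CPM under butyrate), 4 of 6 macrophage markers in macrophages (4314 to 4366 and 2568 to 2779 CPM), 3 of 6 myotube markers in myotubes (20450 to 25234 and 12857 to 17438 CPM) and 1 of 6 hepatocyte markers in hepatocytes (36637 to 39901 and 43209 to 45104 CPM). Only lowered own-type markers are counted here, and the hepatocyte sum was higher under butyrate without overlap. In adipocytes butyrate also lowered 2 of 4 endothelial markers (176 to 202 and 117 to 134 CPM) and 2 of 6 macrophage markers (188 to 207 and 170.2 to 172 CPM). Hepatocyte markers, however, summed to 33.9, 586 and 134 CPM in the butyrate replicates 1, 2 and 3 of the myotubes and to 24.8 CPM in bOHB replicate 3, against at most 1.56 CPM in the myotube controls and 36637 to 39901 CPM in the hepatocyte controls. The most affected myotube library thus held 1.53% of the hepatocyte control level. Macrophage markers in the myotubes ran the other way, at 40.0 to 113 CPM in controls, 18.3 to 38.6 CPM under bOHB and 9.23 to 30.7 CPM under butyrate. In hepatocytes they summed to 296 to 341 CPM in controls and 135 to 154 CPM under butyrate, with 2 of 6 lowered, and 4 of 4 endothelial markers were lowered by butyrate there, from 64.6 to 72.1 CPM down to 19.7 to 23.3 CPM. In macrophages 6 of 6 myotube markers were raised, from 6.19 to 12.1 CPM up to 19.3 to 54.4 CPM, and 2 of 4 endothelial markers lowered (summed 42.6 to 59.2 and 45.9 to 52.4 CPM). Adipocyte markers were raised 3 of 5 in hepatocytes (17.2 to 19.9 and 58.0 to 60.2 CPM) and 2 of 5 in myotubes (4.84 to 5.68 and 10.9 to 12.1 CPM), and 2 of 5 fibroblast markers were lowered in hepatocytes (22.6 to 28.3 and 17.7 to 19.6 CPM). In each further pairing of these lists with a cell type butyrate called at most 1 marker in a direction. Among all genes tested, butyrate lowered 30.3%, 33.2%, 33.4% and 32.4% in adipocytes, macrophages, myotubes and hepatocytes. The raised shares were 30.7%, 31.9%, 33.1% and 31% in the same order. A count such as 2 of 6 is near these shares. The part of the marker shifts in the results was not tested. CPM values are relative to the other RNA in the same library, so fewer cells of a kind and less RNA per cell cannot be told apart.

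In untreated cells the splicing factor genes together took 0.622% ± 0.0082 of the reads in adipocytes, 0.746% ± 0.013 in macrophages, 0.548% ± 0.024 in myotubes and 0.662% ± 0.034 in hepatocytes (mean ± SD, n = 3). Which cell type stood highest depended on the scaling of the libraries. On CPM scaled by TMM factors, as all levels are given here unless stated, 29 of the 55 genes were highest in hepatocytes, 17 in macrophages, 6 in myotubes and 3 in adipocytes, and with library totals the counts were 15, 28, 8 and 4. Per kilobase of transcript, Hnrnpk, a poly(C)-binding protein, ranked first in every cell type, from 479.5 ± 12.5 CPM per kb in myotubes to 741 ± 19.2 in hepatocytes (mean ± SD, n = 3). The length was the median over the annotated coding transcripts of a gene, 0.952 kb for Hnrnpk, so this rank depends on that choice. Of the 31-base words of Hnrnpk, 21.1% also occur in other genes. After Snrpn, the widest ranges between cell types among the 54 tested genes were, on the same TMM scale, 2.93-fold for Srsf5, 2.68-fold for Hnrnpa1 and 2.58-fold for Srsf9. Snrpn stood at 48.8 ± 5.43 CPM in myotubes, 15.4 ± 1.23 in hepatocytes, 10.2 ± 0.825 in adipocytes and 1.22 ± 0.171 in macrophages. The control libraries of Snrpn did not overlap between any of the cell types, and the mean in myotubes was 39.9-fold that in macrophages.

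Butyrate lowered most splicing factor genes in each of the 4 cell types. A call here is an adjusted p below 0.05 in the quasi-likelihood test of edgeR, with the Benjamini-Hochberg method applied over all 15340 genes, and log2 fold changes are treated minus control. In adipocytes 37 of the 54 tested members were lowered and 5 raised, where 30.3% of all genes tested were lowered and 30.7% raised, 61% in all. The counts were 34 lowered and 5 raised in macrophages (all genes 33.2% and 31.9%, 65% in all). In myotubes 37 were lowered and 2 raised (all genes 33.4% and 33.1%, 66.5% in all), and in hepatocytes 34 and 9 (all genes 32.4% and 31%, 63.5% in all). The median log2 fold change of the members was -0.37 in adipocytes, -0.35 in macrophages, -0.31 in myotubes and -0.42 in hepatocytes, beside medians over all genes between -0.0083 and 0.

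In all 4 cell types 28 members, or 51.9%, were lowered, as were 12.7% of all genes, and 34 members (63%) were lowered in at least 3 (22.9% of all genes). No member was raised in all 4, as 12.5% of all genes were. Snrpd3, Snrpn and Srsf11 were raised in 3, and Snrpa1, which encodes a protein of the U2 snRNP, was the single member called in no cell type (6.86% of all genes), though library totals as scaling called it raised in macrophages (log2 fold change 0.21, adjusted p = 0.0273). The heat map of fold changes shows this as mostly blue columns under butyrate beside nearly white columns under bOHB. These numbers depend on how libraries are scaled. With library totals in place of TMM factors, the median of all genes moved up by 0.20 in macrophages and 0.13 in myotubes, and the members then counted 25 lowered and 14 raised in macrophages (all genes 21.8% and 43.6%) and 27 and 9 in myotubes (all genes 25.2% and 40.9%). The median of the members was then -0.13 in macrophages where all genes stood at 0.20 and -0.17 in myotubes where they stood at 0.13. Without the myotube butyrate libraries of highest hepatocyte marker level, replicates 2 and 3, butyrate lowered 30 members and raised 3 in myotubes (all genes 27% and 28.3%).

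**Figure D1:**
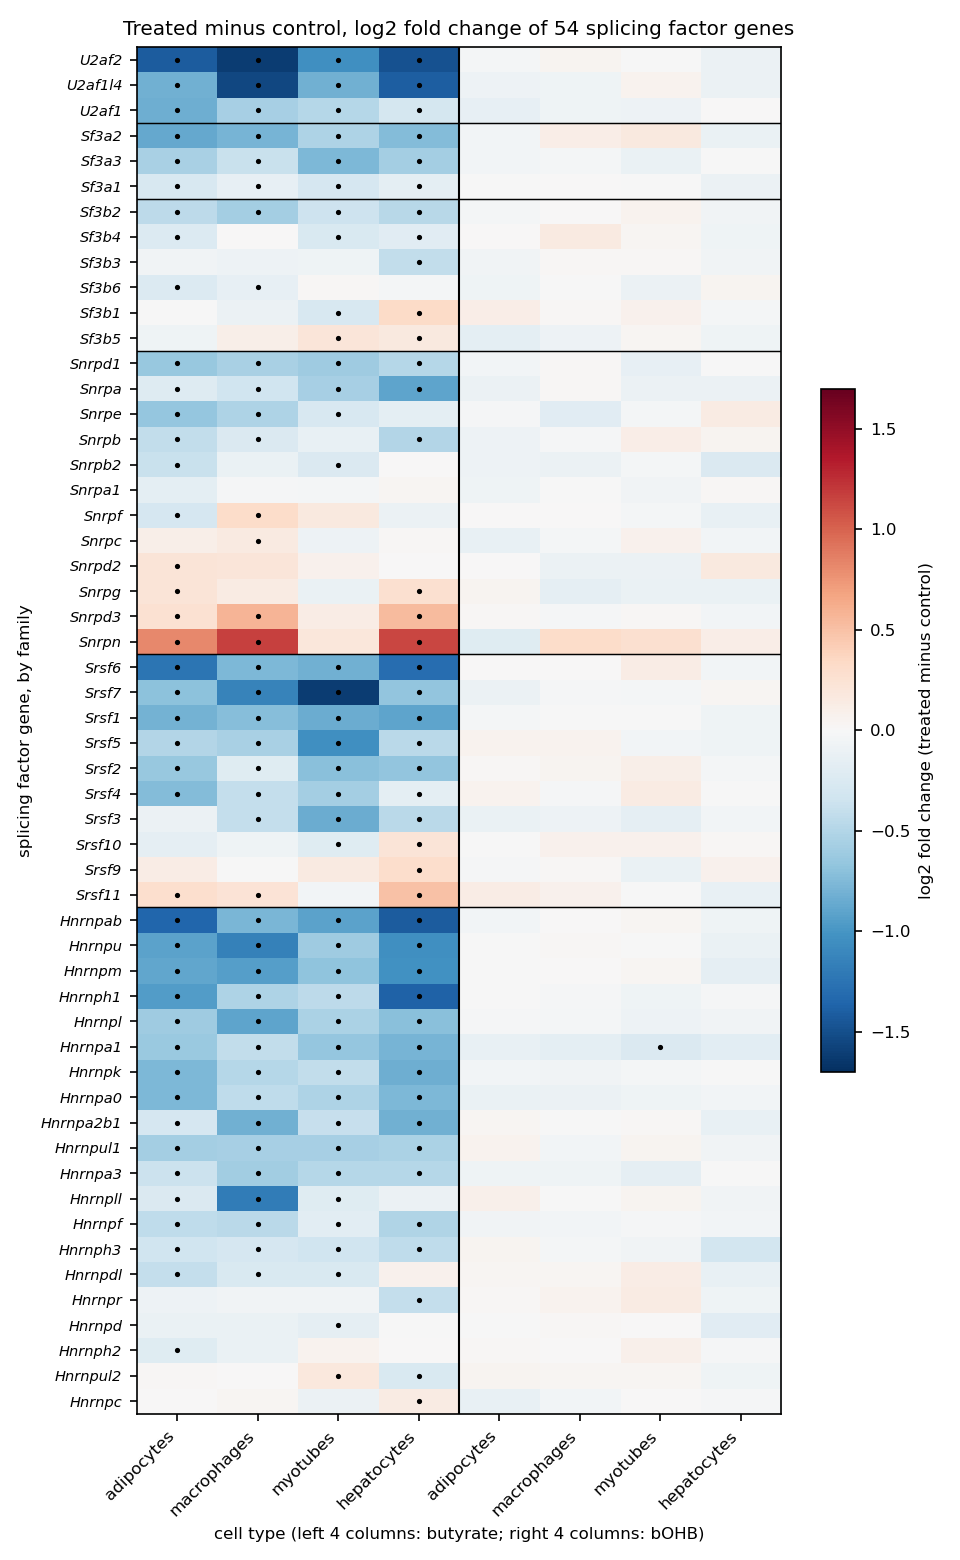
Heat map of log2 fold changes against control for the 54 tested splicing factor genes (rows, grouped by family and ordered by their mean butyrate response) in 4 cell types under butyrate (left columns) and bOHB (right columns); dots mark adjusted p below 0.05 in edgeR. Under butyrate 28 rows are lowered in all 4 cell types, while under bOHB the single dot is Hnrnpa1 in myotubes.

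**Figure D2:**
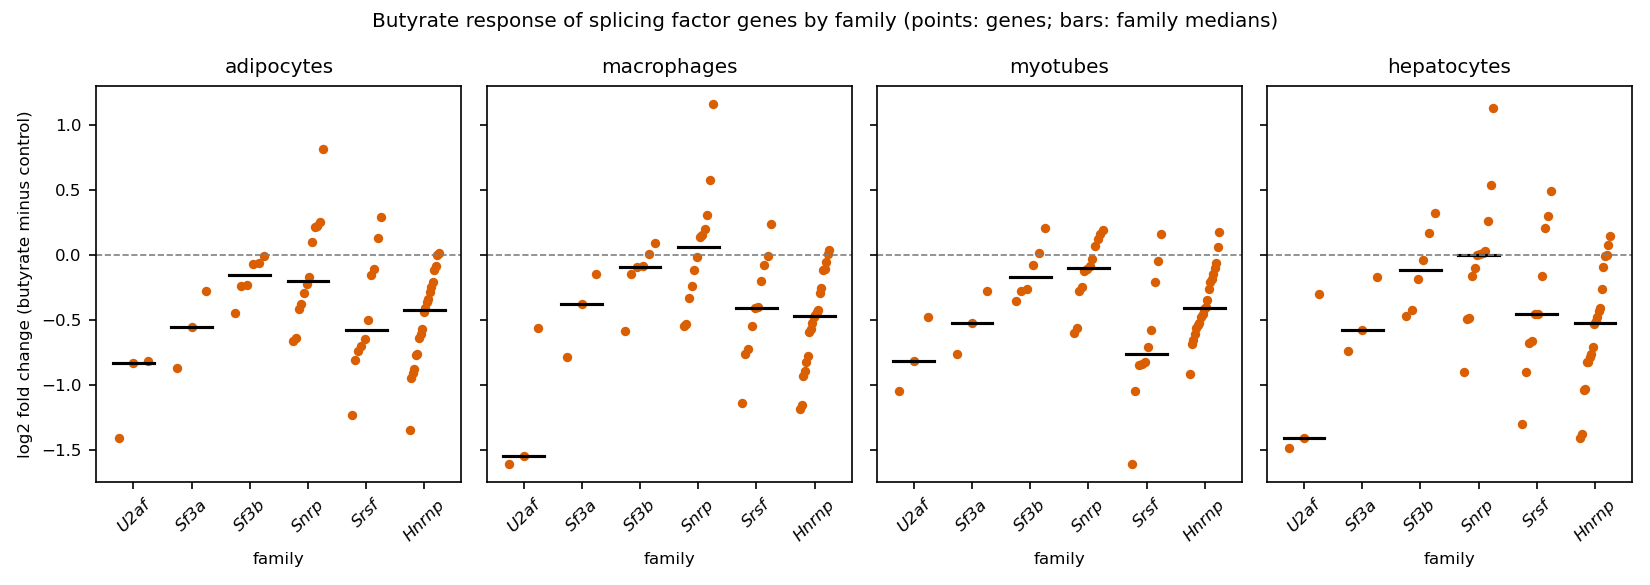
Log2 fold change under butyrate (vertical axis) of each tested gene (points) by family, 1 panel per cell type, with bars at the family medians and a dashed line at 0. All U2af and Sf3a points lie below 0, whereas the Snrp points fall on both sides.

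Of the 6 families, U2af had the lowest median log2 fold change, at -0.83, -1.55, -0.82 and -1.41 in adipocytes, macrophages, myotubes and hepatocytes, and all 3 genes were lowered in each, as 12.7% of all genes were. U2af2 (ENSMUSG00000030435; chr7:5062143-5079938, forward strand, GRCm38) encodes the large subunit that binds the polypyrimidine tract. Its level in adipocytes was 119.95, 106 and 111 CPM in the 3 control libraries and 42.5, 42.1 and 42.4 CPM under butyrate. In macrophages it went from 143, 148 and 146 to 46.5, 47.6 and 48.6 CPM. The butyrate libraries lay far below the controls without overlap, as they also did in myotubes (107, 99.4 and 102 against 49.0, 47.0 and 53.3 CPM) and hepatocytes (157, 139 and 146 against 53.99, 51.6 and 52.4 CPM). The log2 fold change ± SE was -1.41 ± 0.058 in adipocytes, -1.61 ± 0.058 in macrophages, -1.05 ± 0.057 in myotubes and -1.48 ± 0.058 in hepatocytes, so that between 32.7% and 48.4% of the control level was left (adjusted p at most 1.02e-15). In 3 of the cell types U2af2 was the most strongly lowered member, the exception being myotubes, where Srsf7 fell further. A share of 21.4% of the 31-base words of U2af2 also occurs in other genes.

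U2af1, the small subunit that reads the AG at the intron end, fell less, with log2 fold changes of -0.83 ± 0.079 in adipocytes, -0.56 ± 0.08 in macrophages, -0.48 ± 0.077 in myotubes and -0.30 ± 0.077 in hepatocytes (adjusted p at most 0.00116). Its hepatocyte level was 68.0, 59.7 and 66.2 CPM in controls and 54.5, 53.0 and 50.3 CPM under butyrate, which is close together but without overlap. U2af1l4 encodes a paralogue of the small subunit and is expressed at a lower level, with 15.5, 13.7 and 14.4 CPM in macrophage controls and 5.35, 4.21 and 5.37 CPM under butyrate. Its log2 fold changes were -0.82 ± 0.091 in adipocytes, -1.55 ± 0.096 in macrophages, -0.82 ± 0.09 in myotubes and -1.41 ± 0.11 in hepatocytes (adjusted p at most 4.35e-09). U2af1l4 overlaps exons of Gm49396 on the same strand and Psenen on the other, and 49.6% of its 31-base words occur in other genes, so part of its reads may belong to them. Summed over the 3 genes, the U2AF level in CPM under butyrate was 44.3% of control in adipocytes, 39.5% in macrophages, 56.0% in myotubes and 49.0% in hepatocytes.

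SF3a, the trimer that joins the U2 snRNP before branch point binding, has 3 subunit genes, and each was called as lowered in all 4 cell types, as 12.7% of all genes were. Sf3a2 had the lowest mean log2 fold change of the 3 over the cell types, although Sf3a3 fell further in myotubes. It had adipocyte levels of 33.9, 31.3 and 32.3 CPM in controls and 18.4, 17.1 and 17.9 CPM under butyrate and log2 fold changes of -0.87 ± 0.062 in adipocytes, -0.79 ± 0.059 in macrophages, -0.52 ± 0.06 in myotubes and -0.74 ± 0.06 in hepatocytes. For Sf3a3 they were -0.55 ± 0.067 in adipocytes, -0.37 ± 0.065 in macrophages, -0.76 ± 0.067 in myotubes and -0.57 ± 0.066 in hepatocytes. The largest subunit gene, Sf3a1, moved little, with log2 fold changes of -0.28 ± 0.055 in adipocytes, -0.14 ± 0.053 in macrophages, -0.28 ± 0.054 in myotubes and -0.17 ± 0.054 in hepatocytes, and adjusted p from 3.9e-05 to 0.0193. In macrophages Sf3a1 stood at 77.6, 78.6 and 76.99 CPM in controls and 72.5, 74.0 and 64.5 CPM under butyrate, and its call there was lost with library totals as scaling (log2 fold change 0.080, adjusted p = 0.176), as it was in 5 other settings, among them leaving out control replicate 2 or butyrate replicate 3. The hepatocyte call was lost without butyrate replicate 2.

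The stretches before the starts of these 3 genes are shown because all 3 were called as lowered in the fit with TMM factors. All 3 also carry the letters CCGGAAG or their reverse complement CTTCCGG, a core of ETS-type motifs. They are the 120 bases upstream of the RefSeq start (GRCm38.p6, chr11:4160234-4160353 forward strand for Sf3a1, chr10:80798615-80798734 forward strand for Sf3a2 and chr4:124714741-124714860 forward strand for Sf3a3), written 5' to 3' on the strand of the gene. Capitals mark CCGGAAG, the GC box letters GGGCGG and the CCAAT letters on either strand.
Sf3a1: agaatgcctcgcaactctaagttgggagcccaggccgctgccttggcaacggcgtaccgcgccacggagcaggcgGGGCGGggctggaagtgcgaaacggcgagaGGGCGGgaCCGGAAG
Sf3a2: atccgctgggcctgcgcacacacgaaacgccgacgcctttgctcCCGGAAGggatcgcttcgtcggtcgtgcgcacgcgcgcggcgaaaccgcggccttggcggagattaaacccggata
Sf3a3: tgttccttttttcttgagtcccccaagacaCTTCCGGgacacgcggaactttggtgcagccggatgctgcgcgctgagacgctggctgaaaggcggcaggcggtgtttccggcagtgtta
Srsf7: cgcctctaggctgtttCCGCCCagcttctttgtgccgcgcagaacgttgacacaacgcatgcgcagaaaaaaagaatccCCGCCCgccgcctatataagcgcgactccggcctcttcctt
The last line is the promoter of Srsf7 (chr17:80207306-80207425, reverse strand), the member with the largest fall in myotubes, which has GC box letters in this stretch and holds CCGGAAG or its complement elsewhere in its 300-base window. RefSeq promoter windows of 300 bases, 250 before to 50 after the start, were at hand for 48 of the 55 members. CCGGAAG or its complement stood in 16 of these 48 (33.3%), and in 9.93% of all 27025 genes of the table. Among members lowered in all 4 cell types 8 of 26 held it (30.8%), and among the other members 8 of 22 (36.4%). GGGCGG or its complement was present in 34 members (70.8%; 38.2% of all genes), CCAAT in 24 (50%; 41.1%), TATAAA in 7 (14.6%; 15.7%) and an NRF1-type motif in 1 (2.08%; 1.07%). The 27025 genes were not limited to the 15340 genes tested here, whereas all members but Srsf12 were tested. A gene counted when any of its windows matched, and the 48 members had 66 windows. A match is a description of the sequence only. The motifs were chosen with the results known.

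SF3b clamps the branch point adenosine, and the 6 of its genes that carry the Sf3b prefix did not move together. Sf3b2 was lowered in all 4 cell types, with log2 fold changes of -0.45 ± 0.048 in adipocytes, -0.58 ± 0.047 in macrophages, -0.36 ± 0.047 in myotubes and -0.47 ± 0.047 in hepatocytes. Sf3b4, which contacts RNA upstream of the branch point, was called in adipocytes (-0.23 ± 0.071), myotubes (-0.26 ± 0.072) and hepatocytes (-0.19 ± 0.07). Sf3b3 was lowered in hepatocytes (-0.42 ± 0.049), and Sf3b6, the subunit that touches the branch point adenosine, in adipocytes (-0.24 ± 0.056) and macrophages (-0.14 ± 0.056). Sf3b5 was raised in myotubes (0.21 ± 0.076) and hepatocytes (0.17 ± 0.072). Some of these small changes rested on single libraries. The Sf3b4 calls were lost without control replicate 1 in adipocytes and without control replicate 1 or butyrate replicate 2 in hepatocytes, the Sf3b6 call in macrophages without any 1 of 5 libraries and in DESeq2, and the Sf3b5 calls without butyrate replicate 3 in myotubes and without any 1 of 5 libraries in hepatocytes. With library totals as scaling, the macrophage value of Sf3b6 changed sign to 0.081. A share of 51.2% of the 31-base words of Sf3b4 also occurs in other genes.

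Sf3b1 (ENSMUSG00000025982; chr1:54985169-55027481, reverse strand), the largest SF3b subunit, was called in opposite directions. In hepatocytes its level was 195, 198 and 211 CPM in controls and 254, 257 and 244 CPM under butyrate, all higher. In myotubes it was 189, 179 and 185 CPM in controls and 149.8, 153 and 155 CPM under butyrate, all lower. The log2 fold changes were 0.32 ± 0.055 (adjusted p = 6.15e-06) and -0.28 ± 0.055 (adjusted p = 6.06e-05) in edgeR, and the 4 responses differed (adjusted p = 8.64e-07, F test of the interaction in the same fit). In adipocytes the groups overlapped, with a log2 fold change of -0.0072 ± 0.055 (95% interval -0.12 to 0.11), and in macrophages it was -0.094 ± 0.054 (interval -0.21 to 0.018). The myotube call was lost with library totals as scaling.

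The Snrp genes, which encode the Sm ring and the proteins particular to the U1 and U2 snRNPs, included genes called in each direction. Butyrate lowered 6 and raised 4 of the 12 in adipocytes, 4 and 4 in macrophages, 4 and 0 in myotubes and 3 and 3 in hepatocytes. As shares, 50%, 33.3%, 33.3% and 25% were lowered where 30.3%, 33.2%, 33.4% and 32.4% of all genes were, and 33.3%, 33.3%, 0% and 25% raised where 30.7%, 31.9%, 33.1% and 31% were, in the order adipocytes, macrophages, myotubes and hepatocytes. Summed over the family, CPM under butyrate were 91.8% to 97.3% of control, and the libraries overlapped with controls in macrophages and hepatocytes. Within the Sm ring, Snrpd1 was lowered in every cell type, with log2 fold changes of -0.64 ± 0.075 in adipocytes, -0.55 ± 0.074 in macrophages, -0.60 ± 0.076 in myotubes and -0.49 ± 0.075 in hepatocytes. Snrpd3 went the other way, at 42.3, 41.0 and 43.2 CPM in macrophage controls and 59.5, 61.4 and 68.4 CPM under butyrate. It was raised by 0.26 ± 0.06 in adipocytes, 0.58 ± 0.061 in macrophages and 0.54 ± 0.06 in hepatocytes, while in myotubes the value was 0.12 ± 0.061 (adjusted p = 0.0724 in edgeR). Snrpb, which encodes SmB, was lowered in adipocytes (-0.42 ± 0.062), macrophages (-0.24 ± 0.061) and hepatocytes (-0.49 ± 0.062), and in myotubes its value was -0.12 ± 0.062 (interval -0.25 to 0.0077).

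Snrpn (ENSMUSG00000102252; chr7:59982495-60140219, reverse strand) encodes SmN, which can take the place of SmB in the ring, and is an imprinted gene best known from neurons. It was the most strongly raised member in adipocytes, macrophages and hepatocytes. In hepatocytes it measured 15.9, 14.0 and 16.3 CPM in controls and 35.0, 33.2 and 33.1 CPM under butyrate. In adipocytes it measured 10.39, 9.35 and 11.0 CPM and 18.8, 18.3 and 17.0 CPM. Neither pair of groups overlapped, and the log2 fold changes were 1.14 ± 0.13 (adjusted p = 3.28e-09) and 0.82 ± 0.13 (adjusted p = 2.82e-06) in edgeR. In macrophages the level was near the filter, 1.40, 1.06 and 1.21 CPM in controls and 2.87, 2.73 and 2.71 CPM under butyrate, with a log2 fold change of 1.165 ± 0.24. In myotubes, where the gene was highest, the butyrate libraries at 60.7, 65.5 and 41.5 CPM spread over the controls at 42.7, 50.7 and 53.1 CPM. The log2 fold change there was 0.20 ± 0.11 (adjusted p = 0.121, interval -0.033 to 0.42). Snrpn overlaps exons of Snurf and Gm38393 on the same strand, and 34.5% of its 31-base words occur in other genes, so part of its reads may belong to them.

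Of the other ring genes, Snrpe was lowered in adipocytes, macrophages and myotubes (-0.66, -0.53 and -0.28), Snrpg was raised in adipocytes and hepatocytes (0.23 and 0.27) and Snrpd2 in adipocytes (0.22). Snrpf was lowered in adipocytes (-0.29 ± 0.084) and raised in macrophages (0.31 ± 0.084), but 92.1% of its 31-base words also occur in other genes, chiefly the overlapping Ccdc38, and its values are uncertain. The U1 proteins diverged. Snrpa was lowered in all 4 cell types, with log2 fold changes of -0.23 ± 0.076 in adipocytes, -0.33 ± 0.075 in macrophages, -0.56 ± 0.076 in myotubes and -0.90 ± 0.076 in hepatocytes, whereas Snrpc was raised in macrophages (0.15 ± 0.062) and had values of 0.10, -0.086 and 0.015 in adipocytes, myotubes and hepatocytes. Of the U2 proteins, Snrpb2 was lowered in adipocytes and myotubes (-0.38 and -0.24). Leaving out 1 library ended the calls of Snrpc (macrophage control replicate 1 or 3), of Snrpa in adipocytes (control replicate 1 or butyrate replicate 2), of Snrpg in hepatocytes (control replicate 2) and adipocytes (control replicate 1 or 2 or butyrate replicate 2), of Snrpd2 (5 of the 6 adipocyte libraries), of Snrpe in myotubes (3 libraries) and of Snrpb2 in myotubes (4 libraries, and in DESeq2).

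Among the 10 tested Srsf genes, butyrate lowered 6 in adipocytes, 7 in macrophages, 8 in myotubes and 7 in hepatocytes (60%, 70%, 80% and 70%, where 30.3%, 33.2%, 33.4% and 32.4% of all genes were lowered) and raised 1, 1, 0 and 3 (all genes 30.7%, 31.9%, 33.1% and 31%). Srsf1, Srsf2, Srsf4, Srsf5, Srsf6 and Srsf7 were lowered in all 4. The family sum under butyrate was 64.2% of control in myotubes, the lowest of the cell types, and 76.3% in macrophages, the highest. Srsf7 (ENSMUSG00000024097; chr17:80200080-80207307, reverse strand), an SR protein with a zinc knuckle that also takes part in mRNA export, had the lowest log2 fold change of the family in myotubes and macrophages, while Srsf6 fell further in adipocytes and hepatocytes. In myotubes it measured 47.1, 44.5 and 43.9 CPM in controls and 14.3, 14.9 and 15.2 CPM under butyrate. In hepatocytes it measured 65.9, 57.6 and 65.3 and 40.2, 37.9 and 41.0 CPM. No butyrate library reached its controls in any cell type, and the log2 fold changes were -0.70 ± 0.069 in adipocytes, -1.14 ± 0.07 in macrophages, -1.61 ± 0.074 in myotubes and -0.66 ± 0.07 in hepatocytes (adjusted p at most 9.35e-10). The myotube response of Srsf7 differed from the mean of the other 3 cell types by -0.78 ± 0.084 (adjusted p = 1.04e-08 in edgeR).

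Srsf6, another SR protein, responded more strongly in adipocytes and hepatocytes than in macrophages and myotubes (adjusted p = 1.95e-06 for a difference between the cell types in edgeR). Hepatocyte levels were 153, 135 and 143 CPM in controls and 56.2, 58.7 and 60.0 CPM under butyrate, and log2 fold changes were -1.24 ± 0.065 in adipocytes, -0.76 ± 0.063 in macrophages, -0.82 ± 0.064 in myotubes and -1.30 ± 0.064 in hepatocytes. Srsf1, the founding SR protein, responded evenly, with log2 fold changes of -0.81 ± 0.075 in adipocytes, -0.72 ± 0.075 in macrophages, -0.85 ± 0.076 in myotubes and -0.90 ± 0.077 in hepatocytes, with no difference between cell types passing the test (adjusted p = 0.452). Srsf2 had log2 fold changes of -0.65, -0.20, -0.71 and -0.68 in adipocytes, macrophages, myotubes and hepatocytes. Its macrophage value changed sign to 0.025 with library totals as scaling, and the call there was also lost without butyrate replicate 1 or 2. Srsf5 changed by -0.50, -0.55, -1.05 and -0.45 in the same order and Srsf4 by -0.74, -0.41, -0.58 and -0.16, with the hepatocyte call of Srsf4 (adjusted p = 0.0405) lost in DESeq2 and 9 other settings, among them leaving out control replicate 1 or butyrate replicate 2 or 3. Srsf4 overlaps Gm12992 on the other strand, and 41.0% of its 31-base words occur in other genes.

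Srsf3, which encodes the smallest SR protein, differed in response between the cell types (adjusted p = 5.74e-06 in edgeR). Adipocyte libraries overlapped, with 119.995, 128 and 126 CPM in controls and 110.4, 116 and 122 CPM under butyrate, whereas in myotubes they were 95.4, 86.5 and 88.5 and 49.4, 44.2 and 57.2 CPM. The log2 fold changes were -0.10 ± 0.073 in adipocytes, -0.40 ± 0.073 in macrophages, -0.84 ± 0.076 in myotubes and -0.45 ± 0.075 in hepatocytes. Srsf11, Srsf10 and Srsf9 did not follow the others. Srsf11 measured 96.0, 84.8 and 92.5 CPM in hepatocyte controls and 126, 131 and 128 CPM under butyrate and was raised by 0.49 ± 0.059 there, by 0.29 ± 0.058 in adipocytes and by 0.24 ± 0.058 in macrophages. In myotubes its value was -0.044 ± 0.059 (interval -0.16 to 0.078). Srsf10, an SR protein that represses splicing when dephosphorylated, was raised in hepatocytes (0.21 ± 0.074) and lowered in myotubes (-0.21 ± 0.074), and Srsf9 was raised in hepatocytes (0.30 ± 0.091). The Srsf10 calls were lost without control replicate 2 or butyrate replicate 2 in hepatocytes and without control replicate 1 or butyrate replicate 3 in myotubes.

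Of the 20 Hnrnp genes, 16 were lowered in adipocytes, 15 in macrophages, 16 in myotubes and 15 in hepatocytes (80%, 75%, 80% and 75%, beside 30.3%, 33.2%, 33.4% and 32.4% of all genes), and 13 in all 4 (12.7% of all genes). None was raised in adipocytes or macrophages, Hnrnpul2 was in myotubes and Hnrnpc in hepatocytes. The family sum under butyrate was 68.0%, 68.7%, 76.2% and 61.9% of control in adipocytes, macrophages, myotubes and hepatocytes. Hnrnpab (ENSMUSG00000020358; chr11:51600100-51606847, reverse strand), a close relative of the hnRNP D proteins that binds AU-rich RNA, had the lowest mean log2 fold change of the family over the 4 cell types (-1.11), though not the lowest in macrophages, where Hnrnpll and Hnrnpu were among those that fell further. Its hepatocyte level was 564, 487 and 533 CPM in controls and 201, 203 and 192 CPM under butyrate. In adipocytes it was 336, 319 and 330.3 and 128, 136 and 123 CPM. The groups were far apart in each cell type, with log2 fold changes of -1.35 ± 0.053 in adipocytes, -0.78 ± 0.053 in macrophages, -0.92 ± 0.053 in myotubes and -1.41 ± 0.053 in hepatocytes (adjusted p at most 6.7e-14). Hnrnpab overlaps Phykpl on the other strand, and 28.1% of its 31-base words occur in other genes, so part of its reads may belong to them.

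Hnrnpu, a scaffold-attachment protein of chromatin and RNA, changed by -0.91 ± 0.056 in adipocytes, -1.16 ± 0.056 in macrophages, -0.61 ± 0.056 in myotubes and -1.04 ± 0.056 in hepatocytes, and Hnrnpm by -0.88 ± 0.059 in adipocytes, -0.93 ± 0.058 in macrophages, -0.68 ± 0.059 in myotubes and -1.03 ± 0.059 in hepatocytes. Among the members that bind G runs, Hnrnph1 had its largest response in hepatocytes, where it went from 136, 117 and 141 to 50.9, 51.1 and 49.7 CPM. Its log2 fold changes were -0.94 ± 0.092 in adipocytes, -0.52 ± 0.09 in macrophages, -0.45 ± 0.092 in myotubes and -1.38 ± 0.095 in hepatocytes, against -0.44, -0.46, -0.18 and -0.51 for Hnrnpf and -0.34, -0.29, -0.34 and -0.43 for Hnrnph3 in the same order. Of Hnrnpf, 66.2% of the 31-base words occur in other genes, so its counts are uncertain. Their paralogue Hnrnph2 was called in adipocytes only (-0.21 ± 0.054), with values of -0.12, 0.066 and 0.0042 in macrophages, myotubes and hepatocytes and a difference between the cell types (adjusted p = 0.00818 in edgeR).

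The A-type hnRNPs, which bind exonic silencers, were lowered throughout. Log2 fold changes of Hnrnpa1 were -0.64, -0.42, -0.65 and -0.79 in adipocytes, macrophages, myotubes and hepatocytes. In the same order they were -0.29, -0.82, -0.40 and -0.82 for Hnrnpa2b1, -0.36, -0.59, -0.48 and -0.48 for Hnrnpa3 and -0.76, -0.44, -0.52 and -0.77 for Hnrnpa0. Hnrnpk changed by -0.77, -0.48, -0.42 and -0.83, and Hnrnpl, which binds CA repeats, by -0.61, -0.89, -0.54 and -0.71. Hnrnpul1 was even, at -0.57, -0.57, -0.56 and -0.53 (adjusted p = 0.950 for a difference between the cell types). Its paralogue Hnrnpul2 was lowered in hepatocytes (-0.26 ± 0.048) and raised in myotubes (0.18 ± 0.048).

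Hnrnpll, the paralogue of Hnrnpl known for switching Ptprc (CD45) exons in lymphocytes, stood out by cell type. In macrophages it measured 107, 106 and 108 CPM in controls and 45.03, 45.4 and 50.6 CPM under butyrate. In hepatocytes it measured 55.4, 55.2 and 58.9 and 53.5, 53.4 and 51.8 CPM. The macrophage groups were far apart, while the hepatocyte groups adjoined without overlap (adjusted p = 0.175 in edgeR), with log2 fold changes of -0.25 ± 0.06 in adipocytes, -1.19 ± 0.058 in macrophages, -0.21 ± 0.059 in myotubes and -0.094 ± 0.06 in hepatocytes. The macrophage response differed from the mean of the other 3 by -1.004 ± 0.067 (adjusted p = 4.24e-13 in edgeR). Hnrnpc, whose tetramers bind uridine runs, and Hnrnpd, which binds AU-rich elements of unstable mRNA, hardly moved. Hnrnpc was raised in hepatocytes (0.15 ± 0.057) and stood at 0.0028, 0.037 and -0.10 in the others, and Hnrnpd was called in myotubes (-0.15 ± 0.061) with -0.11, -0.11 and -0.0096 elsewhere. Hnrnpr was lowered in hepatocytes (-0.41 ± 0.06), and Hnrnpdl in adipocytes, macrophages and myotubes (-0.41, -0.26 and -0.26). The call of Hnrnpc was lost without hepatocyte control replicate 2 or butyrate replicate 1 or 2, that of Hnrnpd without myotube control or butyrate replicate 3, and that of Hnrnph3 in macrophages without control replicate 3 or butyrate replicate 1 or 2.

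**Figure D3:**
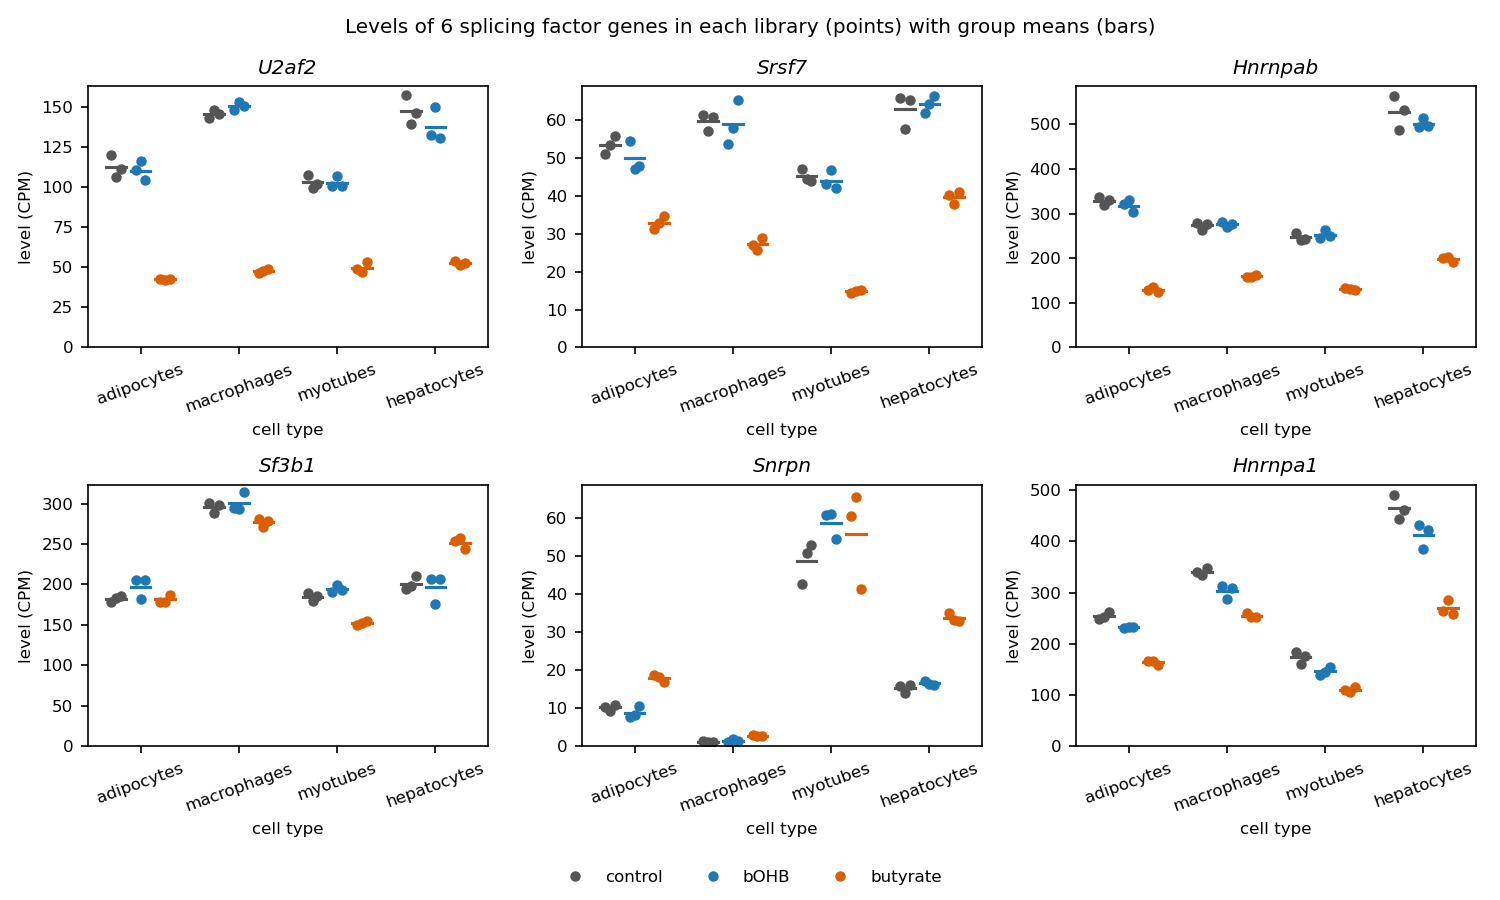
Level in CPM (vertical axis, from 0) of 6 splicing factor genes in every library by cell type, with points for libraries, bars for group means and colours for control, bOHB and butyrate. Butyrate points of U2af2, Srsf7 and Hnrnpab lie below all controls in each cell type, Sf3b1 lies above them in hepatocytes and below them in myotubes, and Snrpn overlaps them in myotubes.

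The size of the butyrate response differed between the 4 cell types for 38 of the 54 members at adjusted p below 0.05, where 74.5% of all genes did. Members of opposite direction were few, namely Sf3b1, Snrpf, Srsf10 and Hnrnpul2 (7.41%; 19.3% of all genes). Against the mean of the other 3 cell types, 12 members responded lower and 18 higher in myotubes, 15 lower and 13 higher in hepatocytes, 7 and 12 in macrophages and 13 and 6 in adipocytes. The called shares were 42% of all genes in myotubes, 46.3% in hepatocytes, 39.9% in macrophages and 32.9% in adipocytes. Of 14 proliferation markers, butyrate lowered 11 in macrophages, 11 in myotubes, 4 in adipocytes and 2 in hepatocytes and raised 0, 1, 1 and 4. In adipocytes that is 28.6% lowered, where 30.3% of all genes were, and in macrophages 78.6% where 33.2% were. Beside the 11 lowered in myotubes stand 33.4% of all genes. Beside the 2 lowered and 4 raised in hepatocytes stand 32.4% and 31%. Their summed level was 2495 to 2547 CPM in macrophage controls and 1326 to 1430 CPM under butyrate, 125 to 199 CPM in myotube controls and 102 to 108 CPM under butyrate, 195 to 300.3 CPM in adipocyte controls and 204 to 208 CPM under butyrate, and 123 to 145 CPM in hepatocyte controls and 119 to 131 CPM under butyrate, with Mki67 at -0.55, -1.29, -2.04 and -0.42 in adipocytes, macrophages, myotubes and hepatocytes and Pcna at -0.20, 0.015, -0.14 and -0.59. Their part in the results was not tested.

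Under bOHB 1 member passed the test in 1 cell type. The bOHB response differed between the 4 cell types for 0 of the 54 members at adjusted p below 0.05 (F test of the interaction). That was so for 0.978% of all genes. No member was called in adipocytes, macrophages or hepatocytes in edgeR, DESeq2 or limma-voom. At an unadjusted P below 0.05 there were 6, 2 and 5 of the 54 members in these cells and 7 in myotubes, where 7.15%, 2.33% and 5.51% of all genes were below it in these cells and 13.7% in myotubes. After adjustment, 0.00652% of all genes were called in adipocytes, 0% in macrophages, 2.91% in myotubes (2.56% lowered, 0.346% raised) and 0.00652% in hepatocytes. The median log2 fold change of the members was -0.019, -0.0064, -0.0014 and -0.056 in adipocytes, macrophages, myotubes and hepatocytes. Over all genes the medians were 0.0017, 0, 0.023 and 0.00084 in the same order. Values below 0 were found for 35, 29, 28 and 44 of the 54 members. The 95% interval lay within 0.5 of 0 for all 54 members in adipocytes and myotubes and for 53 in macrophages and hepatocytes, the exceptions being Snrpn in macrophages (-0.25 to 0.87) and Hnrnph3 in hepatocytes (-0.53 to -0.085).

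The called member was Hnrnpa1 (ENSMUSG00000046434; chr15:103240432-103246692, forward strand), which binds exonic silencers and shuttles to the cytoplasm with mRNA. In myotubes it measured 184, 161 and 176 CPM in controls and 139.9, 144 and 155 CPM under bOHB, a log2 fold change of -0.25 ± 0.057 (adjusted p = 0.0107 in edgeR). In adipocytes the bOHB libraries held 232, 233 and 233 CPM against 248, 253 and 262 CPM in controls. In each of the 4 cell types all 3 bOHB libraries were below all 3 controls, with log2 fold changes of -0.13 ± 0.057 in adipocytes, -0.17 ± 0.057 in macrophages and -0.17 ± 0.057 in hepatocytes (adjusted p 0.664, 1.00 and 0.757). Libraries entirely below controls under bOHB were found for 6.51%, 5.51%, 8.34% and 3.59% of all genes in adipocytes, macrophages, myotubes and hepatocytes, and for 5, 3, 8 and 4 of the 54 members. Entirely above controls were 6.22%, 5.61%, 14.6% and 3.12% of all genes and 2, 3, 6 and 0 members. The myotube call was lost when only the 9 myotube libraries were fitted (adjusted p = 0.287) and without control replicate 1 (0.156), bOHB replicate 1 (0.0958) or bOHB replicate 2 (0.0705). A share of 29.9% of its 31-base words also occurs in other genes. In the same comparison bOHB lowered 6 of 6 macrophage markers (median log2 fold change -1.56), 5 of 14 proliferation markers and 1 of 4 endothelial markers and raised 1 of 6 hepatocyte markers, and their part in the call was not tested.

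**Figure D4:**
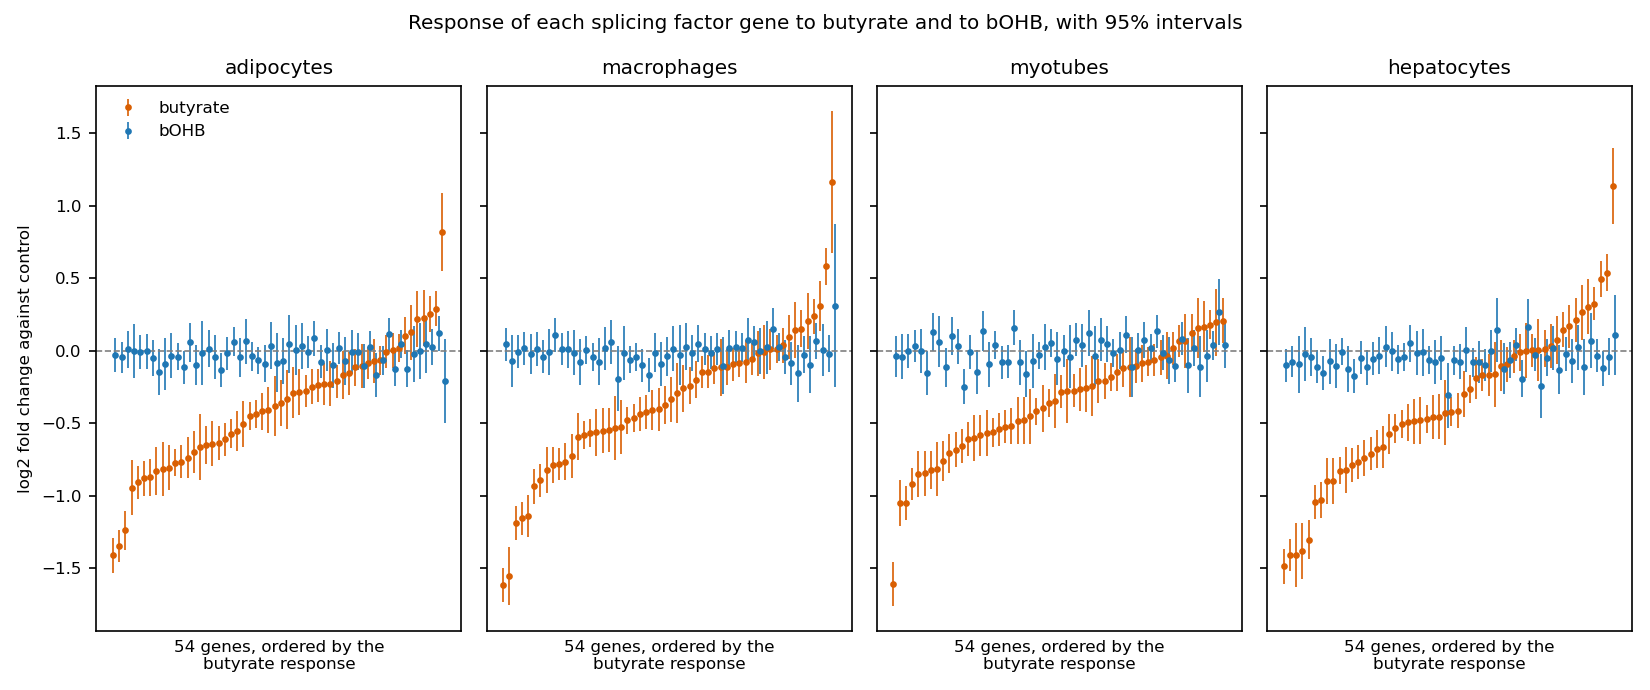
Log2 fold change against control (vertical axis) of the 54 tested splicing factor genes under butyrate and bOHB, with 95% intervals as vertical lines and genes ordered by their butyrate response in each cell type. The bOHB values stay near 0 over the whole range, while butyrate values run from -1.61 to 1.165.

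At the same 5 mM and 6 h, the compounds were also compared with each other, over 54 members in each of 4 cell types with p adjusted over all 15340 genes. Relative to bOHB, butyrate left 36 members lower and 5 higher in adipocytes (all genes 29.5% and 30%, 59.5% in all), and 35 and 8 in macrophages (32.8% and 31.8%, 64.7% in all). The counts were 38 and 3 in myotubes (32.9% and 33.1%, 66% in all) and 32 and 12 in hepatocytes (33% and 30.5%, 63.5% in all). These comparisons share the butyrate libraries with those against control. With library totals as scaling the counts were 29 lower and 10 higher in adipocytes (all genes 22.8% and 36.7%). They were 22 and 12 for macrophages (21.5% and 43.7%) and 26 and 11 for myotubes (21.8% and 44.4%). Without myotube butyrate replicates 2 and 3 they were 29 and 3 in myotubes (24.9% and 28.8%). U2af2 differed between the compounds by -1.38 ± 0.058 in adipocytes, -1.66 ± 0.058 in macrophages, -1.05 ± 0.058 in myotubes and -1.39 ± 0.058 in hepatocytes, and Srsf7 by -0.60 ± 0.07 in adipocytes, -1.12 ± 0.07 in macrophages, -1.57 ± 0.074 in myotubes and -0.69 ± 0.069 in hepatocytes. Hnrnpa1 remained lower under butyrate than under bOHB, with log2 fold changes of -0.51 ± 0.057 in adipocytes, -0.25 ± 0.057 in macrophages, -0.41 ± 0.058 in myotubes and -0.61 ± 0.057 in hepatocytes (adjusted p at most 2.89e-04 in edgeR).

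For Snrpn the compounds differed by 1.02 ± 0.13, 0.86 ± 0.23 and 1.03 ± 0.12 in adipocytes, macrophages and hepatocytes. In myotubes, where bOHB libraries held 60.9, 61.1 and 54.5 CPM, the difference was -0.073 ± 0.11 (interval -0.30 to 0.15). Sf3b1 differed by 0.36 ± 0.055 in hepatocytes and -0.35 ± 0.055 in myotubes. Snrpa1 passed the test in no cell type here either. Its intervals of butyrate minus bOHB were -0.27 to 0.067 in adipocytes, -0.17 to 0.14 in macrophages, -0.13 to 0.20 in myotubes and -0.14 to 0.16 in hepatocytes, so differences of up to that size remain possible.

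Other genes of the splicing machinery were read from lists of known members, each tested in the same fit, with counts and values below in the order adipocytes, macrophages, myotubes and hepatocytes. Beside them, 30.3%, 33.2%, 33.4% and 32.4% of all genes were lowered and 30.7%, 31.9%, 33.1% and 31% raised. Of 41 further snRNP proteins, butyrate lowered 25, 22, 23 and 19 in adipocytes, macrophages, myotubes and hepatocytes and raised 7, 8, 5 and 9 (61%, 53.7%, 56.1% and 46.3% lowered, 17.1%, 19.5%, 12.2% and 22% raised). Snrnp35, a protein of the minor U11 snRNP, had the lowest mean of the lowered genes in this list, with log2 fold changes of -1.24, -1.57, -1.63 and -1.45, and Snrnp48, also of the minor spliceosome, rose in 3 of them (0.10, 0.45, 0.46 and 1.02). Of 16 SR-related proteins without the Srsf prefix, in the same order of cell types, 11, 13, 12 and 9 were lowered and 0, 2, 1 and 5 raised (lowered 68.8%, 81.2%, 75% and 56.2%), Srek1 with values of -0.94, -1.15, -1.12 and -1.68, and Scaf4 was raised in 3 cell types (0.057, 0.34, 0.36 and 0.45). Of 15 tested hnRNP proteins with other prefixes 9, 9, 9 and 11 were lowered and 3, 4, 3 and 3 raised (60%, 60%, 60% and 73.3% lowered, 20%, 26.7%, 20% and 20% raised). The poly(C)-binding genes Pcbp1 and Pcbp3 had the lowest mean of its lowered and the highest of its raised genes over the 4 cell types, at -1.26, -1.18, -0.87 and -1.16 and at 0.65, 0.71, 1.55 and 1.03.

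The 30 Prp19 complex and catalytic step factors counted 13, 14, 16 and 10 lowered and 6, 8, 6 and 10 raised (43.3%, 46.7%, 53.3% and 33.3% lowered, 20%, 26.7%, 20% and 33.3% raised). The helicase gene Dhx38 fell in all 4 cell types (-1.34, -1.02, -1.15 and -0.80) and Mfap1b rose in all 4 (0.38, 0.59, 0.31 and 0.72). Of the 10 LSm ring genes 6, 5, 5 and 5 were lowered and 3, 2, 2 and 3 raised (lowered 60%, 50%, 50% and 50%), with Lsm2 at -1.08, -0.79, -1.14 and -1.57 and Lsm11, raised in 3, at 0.88, 0.17, 1.11 and 0.50. Of 15 genes of nonsense-mediated decay and the exon junction complex 8, 8, 10 and 7 were lowered and 3, 3, 0 and 2 raised (lowered 53.3%, 53.3%, 66.7% and 46.7%), Upf3a with values of -1.23, -1.66, -0.89 and -1.67, while Smg1 was raised in adipocytes and hepatocytes (0.57, 0.039, 0.20 and 0.73).

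Of 9 kinases that phosphorylate SR proteins, 6, 6, 4 and 2 were lowered and 2, 1, 0 and 4 raised (lowered 66.7%, 66.7%, 44.4% and 22.2%), Dyrk1a lowered in all cell types (-0.76, -0.70, -1.19 and -0.90), and Srpk2 was raised in adipocytes and hepatocytes (0.81, 0.084, 0.086 and 1.14). The 22 tested tissue-enriched regulators counted 7, 7, 10 and 6 lowered and 11, 7, 8 and 7 raised (31.8%, 31.8%, 45.5% and 27.3% lowered, 50%, 31.8%, 36.4% and 31.8% raised). Nova2, best known from neurons, had values of 2.13, 3.25, 3.98 and 0.45 (SE 0.21, 0.35, 0.23 and 0.33) and was raised in adipocytes, macrophages and myotubes. The muscle regulator Rbm24 was lowered in myotubes (-1.68 ± 0.11), while its values elsewhere had SEs of 1.80, 0.84 and 1.40 in adipocytes, macrophages and hepatocytes and did not pass the test. For the other genes named from these splicing lists the SE was at most 0.16.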

How the data were processed

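RNA of the 36 libraries was sequenced by the authors on a BGISEQ-500 and quantified with Salmon 1.2.1 against GENCODE M25 transcripts of GRCm38.p6. The deposited values are estimated counts per gene, summed with tximport by the authors. Their methods state a scaling by transcript length and library size. Of the values above 0, 55.6% are exactly whole (64.1% within 0.0051 of a whole number), and whether that scaling was applied to the deposited table was not settled here.

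Counts were rounded to whole numbers and fitted in R 4.3.3 with edgeR 4.0.16 (TMM factors, quasi-likelihood test) over the 12 groups and all 36 libraries. Genes above 1 CPM in at least 6 libraries were kept, and p-values were adjusted by Benjamini-Hochberg over the 15340 tested genes. Levels are TMM-scaled CPM. Library totals ran from 18366289 to 23221473, and 3 libraries per group limit the precision. An exact permutation test of 3 against 3 cannot go below 0.1 and was not used. Differences of the butyrate response between cell types are contrasts of the same fit. Alternatives were DESeq2 1.42.0, limma-voom (limma 3.58.1), RLE scaling, library totals, other count filters, single cell types, a replicate block, an unadjusted P below 0.001 and leaving out each library. The replicate numbers did not pair the samples, with a correlation over 0.1 in 4 of 36 pairs (range -0.264 to 0.273). The closest replicates still differed beyond counting noise (chi-square per gene 2.66 or more).

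Named members were those of the 5 largest called changes in each direction per cell type without overlap of libraries, those called under bOHB, those called in the same direction in all cell types or in opposite directions, 15 genes fixed by name and members below the filter. Others were named after their values were seen, where a family is described in full. Of each list the gene of largest mean change in each direction was named. Members, families, lists and motifs were chosen with earlier results of these data known. The fitting steps were tested on simulated counts. Gene positions, types and shared 31-base words are from a GENCODE annotation of GRCm38 other than the release counted on. Of the 55 members, 23 shared more than 10% of these words with other genes, and not all of them are flagged above. Snrpa (29.9%), Hnrnpa3 (28.1%), U2af1 (25.8%) and Srsf2 (23.1%) are among those not flagged. Promoter sequences are from RefSeq (GRCm38.p6), with no row for Sf3b5, Hnrnpll, Hnrnpul2, Sf3b4, Snrpb, U2af2 and Snrpd1.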

Additional observations from a re-analysis of the deposited data

Results flagged for a closer look

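The butyrate response of 38 members differed between the 4 cell types by an F test of the interaction, where 74.5% of all genes did. Among these, 4 members were called in opposite directions in different cell types. The range of the log2 fold change over the cell types was 0.44 for Hnrnpul2, 0.60 for Sf3b1, 0.60 for Snrpf and 0.42 for Srsf10. A further 4 members kept their direction where called but spanned more than 0.9 on the log2 scale, namely Srsf7 (0.94), Hnrnph1 (0.93), Hnrnpll (1.09) and Snrpn (0.97).

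Hepatocyte markers, which no comparison of the splicing factors used, were above the level of the myotube controls (at most 1.56 CPM summed) in 4 myotube libraries. The sums were 24.8 CPM in bOHB replicate 3 and 33.9, 586 and 134 CPM in butyrate replicates 1, 2 and 3. Their part in the myotube results was not tested beyond the counts without butyrate replicates 2 and 3.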

How the results depend on the processing

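Of the 163 calls of members under butyrate, limma-voom kept all, DESeq2 lost 4, RLE scaling 3, a filter of more than 20 counts in at least 6 libraries 1, no filter 12, fits of only the 9 libraries of a cell type 7, the replicate block 2, an unadjusted P below 0.001 27 and library totals 26. With library totals, log2 fold changes in macrophages turned to 0.17 for Hnrnpr, 0.14 for Sf3b3 and 0.21 for Snrpa1, which then passed the test as raised (edgeR adjusted p = 0.0128, 0.00514 and 0.0273), and to 0.080 for Sf3a1, 0.081 for Sf3b6 and 0.025 for Srsf2, which did not. Leaving out 1 library ended 21 of the calls in at least 1 case and reversed none.

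Several counts of members moved. Members raised against control were, with library totals, 14 in macrophages (5 in the reported fit) and 9 in myotubes (2), with DESeq2 4 and with RLE scaling 4 in myotubes, with no filter 3 in adipocytes (5) and 1 in myotubes, and at an unadjusted P below 0.001 3 in adipocytes, 1 in myotubes and 4 in hepatocytes (9). Raised against bOHB were, with library totals, 10 in adipocytes (5) and 11 in myotubes (3), with DESeq2 7, with RLE scaling 7 and with only 9 libraries 6 in myotubes, with no filter 1 in adipocytes, and at an unadjusted P below 0.001 3 in adipocytes, 2 in macrophages (8), 0 in myotubes and 5 in hepatocytes (12). Lowered against bOHB in macrophages were 22 with library totals (35). The call under bOHB in myotubes was 0 with only 9 libraries (1). Median CPM of the members in controls was, with library totals, 78.6 in adipocytes, 78.1 in myotubes and 68.5 in hepatocytes. The causes were not tested.

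Without 1 library, members raised against control ranged from 3 to 5 in adipocytes (3 without control or butyrate replicate 2) and from 5 to 10 in hepatocytes (5 without control replicate 2), those raised against bOHB in myotubes from 1 to 4 (1 without bOHB replicate 1), and those lowered by bOHB in myotubes from 0 to 1. With the replicate block butyrate lowered 37, 33, 36 and 34 members in adipocytes, macrophages, myotubes and hepatocytes, and 40 differed between cell types. The labels do not tie the numbers to shared animals. Counts without myotube butyrate replicates 2 and 3 were added after seeing the data and left 1 library, assumed to vary like the other groups.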
